A study of Mus musculus with 6 samples.

Results

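The RNA sequencing table of murine leukemias lists 41128 genes, of which 1072 are microRNA loci, that is, genes whose symbol is Mir or Mirlet followed by a digit. The 197 loci described here are those with an RPKM over 5 in at least 2 of the 6 mice, where RPKM is the number of reads on a gene scaled by its length and by the depth of the library. For most genes that length behaved as the whole annotated span, introns included, so genes with long introns have a low RPKM for their reads. A further 187 loci had an RPKM above 0 in at least 1 mouse, and 688 were listed at 0 in all mice. The level that chose the loci was read in the same libraries, so the levels are given as a description. The cohorts were compared with a test over all genes, but the choice bears on that comparison for loci that reached the level in 1 cohort alone, which are pointed out below.

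All leukemias were made in the C57BL/6 background from KIT+ bone marrow (BM) cells of CD45.1+ donors. The cells carried retroviral *Hoxa9*, a homeobox gene that immortalizes myeloid progenitors, in both cohorts. In the *Hoxa9*/*IRX3* cohort the partner vector carried a human *IRX3* cDNA, and in the *Hoxa9*/MTV cohort it was the empty vector MTV. Doubly transduced, drug-selected cells were injected with unfractionated CD45.2+ BM cells into irradiated congenic female recipients, and donor-derived viable KIT+Gr1+ cells were later sorted from thawed BM of sick mice. There was 1 library per mouse. Mice 1.1, 1.2 and 1.4 had *Hoxa9*/MTV leukemias, mice 3.2, 3.3 and 3.5 had *Hoxa9*/*IRX3* leukemias, and no number pairs a mouse with one of the other cohort. The leading digit of the mouse number and the running number of the library also follow the cohort, so that any difference in handling that goes with them cannot be told apart from the vector. The p-values measure the spread between these 6 mice.

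MicroRNAs are short RNAs that guide Argonaute proteins to partly matching messenger RNAs and lower their translation and stability. Most are cut from a hairpin in a long primary transcript by the Microprocessor (DROSHA and DGCR8), exported, and cut again by DICER. Many hairpins lie inside introns or exons of other genes, called hosts, and in mirtrons the hairpin is a short intron itself, released by splicing without DROSHA. In myeloid cells miR-223 is the classical granulocytic microRNA, miR-21 and the miR-17-92 family are common in leukemia, and miR-196b and miR-10a are encoded in the HOX clusters. The mature products are far shorter than the paired reads of 75 bases used here and carry no poly(A) tail, so reads of these libraries on a hairpin come from its primary or host transcript and say nothing of the mature microRNA.

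Of the 197 loci, 178 had at least 1 mature sequence in RefSeq (GRCm38.p6) that lies in the locus and is printed or counted here, 302 sequences in all with 285 different seeds. The seed, bases 2 to 8, pairs with the target and is given in capitals. The first lines are the products of loci that the comparison below turns on, from Mir3061, Mir7044 and Mir5125:
mmu-miR-3061-5p: cAGUGGGCcgugaaagguagcc
mmu-miR-3061-3p: cUACCUUUgauaguccacugcc
mmu-miR-7044-3p: aUGCAGCCccgacccucacag
mmu-miR-5125: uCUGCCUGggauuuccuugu

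The products of the 5 loci with the highest mean RPKM follow, to show which hairpins took most reads:
mmu-miR-3064-5p: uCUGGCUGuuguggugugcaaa
mmu-miR-3064-3p: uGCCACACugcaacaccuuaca
mmu-miR-682: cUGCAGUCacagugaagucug
mmu-miR-5114: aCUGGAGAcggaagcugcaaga
mmu-miR-546: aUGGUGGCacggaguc
mmu-miR-7654-3p: cGAGCGGGagcgcgccucgucc

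These are products of the loci from the lists of microRNAs known in blood cells:
mmu-miR-223-3p: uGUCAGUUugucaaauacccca
mmu-miR-21a-5p: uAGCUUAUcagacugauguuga
mmu-miR-25-3p: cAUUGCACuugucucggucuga
mmu-miR-24-3p: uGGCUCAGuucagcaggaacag
mmu-miR-147-5p: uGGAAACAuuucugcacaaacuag

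The last lines are 3p products of hairpins that end exactly where the next exon of the host begins. All of them end in cag, like the introns themselves, and the first and last share a seed:
mmu-miR-7048-3p: uCUUCCAUucucuuuccccag
mmu-miR-7006-3p: uUUCUGACcuggauccccag
mmu-miR-7119-3p: aAAAAACAccguuuccuccag
mmu-miR-7077-3p: cCUUCCAUggcuccuggcag

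The cells were checked against markers. No *Hoxa9*/MTV library had a read on Irx3, the mouse gene, which stood at 15.1 RPKM in mouse 3.2, 0.421 in 3.3 and 0.148 in 3.5. The cohorts differ by a human cDNA, which the mouse table does not list, so Irx3 does not check the labels. Hoxa9 was at 154 to 363 RPKM in the 6 mice. The progenitor receptor gene Kit was read at 1.63 to 3.12 RPKM and Ly6c2, a part of the Gr1 epitope, at 413 to 844, while Ly6g, the other part, stayed at 0.0532 to 1.42. Of the 8 genes of the KIT+Gr1+ list, Elane and Ly6g were called higher in *Hoxa9*/*IRX3*. The summed RPKM of 7 erythroid genes was at most 0.0965 in *Hoxa9*/MTV and 0 in *Hoxa9*/*IRX3*, that of 7 T and NK cell genes at most 0.0655 and 0.0350, that of 4 megakaryocyte genes 0.448 to 0.857 and 0.0485 to 0.804, and that of 5 stroma genes 0.00697 to 0.106 and 0.153 to 1.04. The summed level of 5 B cell genes was 6.25 to 7.13 RPKM in *Hoxa9*/MTV against 0.276 to 2.31 in *Hoxa9*/*IRX3*, carried by Cd79b, with Ms4a1 and Pax5 at 0 in all mice. The part of these genes in the results below was not tested.

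Depth on the loci was low. Libraries held 7979246 to 9803621 counted reads, of which 0.0461% to 0.0612% lay on the 197 loci. The hairpins were 53 to 139 bases long with a median of 73, and at that length 1 read was worth 1.40 to 1.72 RPKM, depending on the library. The limit of 5 RPKM therefore stood at about 3 reads, which were worth 4.19 to 5.15 RPKM. Over the 6 mice together the loci had between 7 and 2072 reads with a median of 53, and 67 of them had under 30. Just inside the limit lay Mir186 and Mir8101, with a second-highest value of 5.09 RPKM each, and just outside lay Mir6968 with 4.99 and Mir1949 with 4.81.

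The levels were unequal. Mean RPKM over 6 mice ran from 1.99 to 416 with a median of 13.1, and 15 loci were over 100. The 10 loci with the most reads held 39.4% of all reads on the 197. In 99 loci all 6 mice were over 5 RPKM, in 37 exactly 2 mice were, and 157 loci were above 0 in every mouse. Since 11 loci passed only through *Hoxa9*/MTV mice and 10 only through *Hoxa9*/*IRX3* mice, these 21 had to lean to one cohort.

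Almost all loci over the limit lay inside another gene. By GENCODE M21 (GRCm38), 134 of the 197 (68.0%) lay in an intron of a gene of the same strand, 52 (26.4%) in an exon, 4 only opposite to a gene and 6 in no gene, and 1 lay at the end of host transcripts. Of those in exons, 35 were in untranslated regions, 13 in coding sequence and 4 in noncoding transcripts. Within introns most hairpins lay at one end, and 92 of 134 ended at the very base before the 3′ exon and 107 were within 10 bases of it. In 19 the hairpin filled the intron much as in mirtrons, with at most 10 bases left uncovered at either end. Some of these ran into exons, such as Mir8093, 137 bases long on an intron of 96 bases, so exon reads can enter their values. The median intron was 320 bases long and 54 were under 200.

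The same shares were taken for the loci under the limit. Hairpins flush with the 3′ exon made up 46.7% of the 197 loci, 29.4% of the 187 loci above 0 but under the limit, and 4.14% of 676 loci at 0, among the 1060 loci with an annotated position. Loci in exons made up 26.4%, 9.09% and 5.18% of these groups, and loci in no gene 3.05%, 15.0% and 32.8%. The hosts differed as well, with a median of 4.15, 1.37 and 0.0294 RPKM in the same order. Of the flush hairpins with a 3p product in RefSeq, 61 of 80 products (76.2%) ended in AG among the 197 loci, against 14 of 52 (26.9%) for the other loci of the 197. The rule on levels chose these groups, so the shares are a description. How many bases a read had to share with a hairpin to be counted is not given in the sources used here, and reads on a neighboring exon cannot be told apart from reads of an unspliced transcript.

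**Figure D1:**
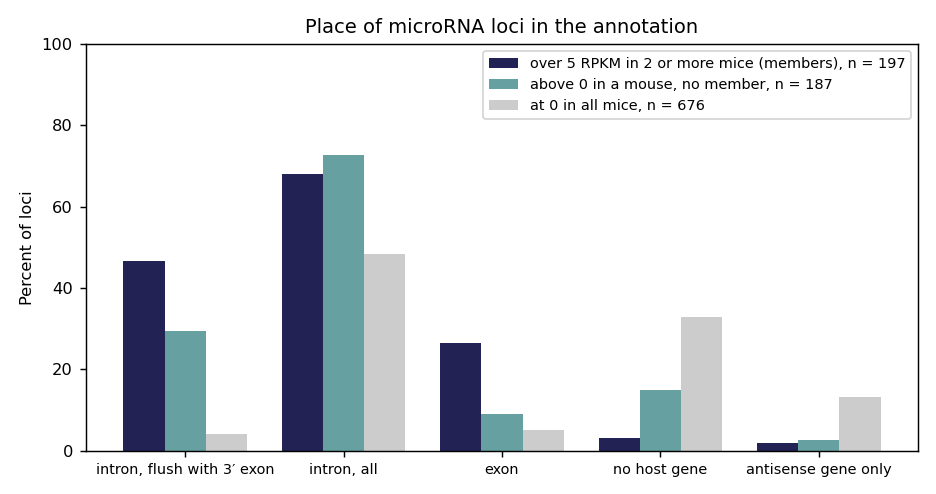
Percent of microRNA loci (y axis) by their place in the annotation (x axis), for the 197 loci described here, 187 loci above 0 but under the limit, and 676 loci at 0 in all 6 mice. Loci flush with a 3′ exon, which are part of all intronic loci, make up 46.7%, 29.4% and 4.14% of the groups, and loci without a host gene 3.05%, 15.0% and 32.8%.

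Values behaved as strand-specific counts. Of 114 genes under 400 bases that lay whole inside exons of protein-coding genes with a mean over 5 RPKM on the same strand, 3 were at 0 in all mice. Their median level was 1.72 times that of the surrounding gene, whose length includes its introns. Of 8 such genes on the opposite strand, 6 were at 0 in all mice. A hairpin and a host on the same strand share reads, and so do their values below.

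The 5 loci with the highest mean all lay inside another gene. Mir3064, chr11:106782693-106782759 on the minus strand, lies at the 3′ end of an intron of Ddx5, whose protein is an RNA helicase of the Microprocessor. Its level was 603, 438 and 722 RPKM in mice 1.1, 1.2 and 1.4 and 271, 365 and 97.3 RPKM in mice 3.2, 3.3 and 3.5. All *Hoxa9*/*IRX3* mice were below all *Hoxa9*/MTV mice, with a fitted log2 fold change of -1.43 ± 0.51 (SE, n = 3 and 3) and a limma adjusted p of 0.191. In bulk samples such as these, fewer cells that make a transcript and less of it per cell cannot be told apart.

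Mir682 lies in Gm4149, a processed pseudogene on chromosome 13, and was read at 317, 384 and 377 RPKM in *Hoxa9*/MTV against 478, 307 and 589 RPKM in *Hoxa9*/*IRX3*. Its cohorts overlapped. Processed pseudogenes are near copies of a parent gene, so this value is uncertain. Mir5114, in the untranslated region of the fatty acid desaturase gene Scd2, was at 261, 405 and 363 RPKM against 287, 247 and 288 RPKM, and its cohorts overlapped too. Mir546, in the untranslated region of the phosphatase gene Ctdsp2, was the steadiest of the 5, at 274 ± 14.2 RPKM in *Hoxa9*/MTV against 279 ± 29.8 RPKM in *Hoxa9*/*IRX3* (SD, n = 3 each). It took between 11.9% and 13.4% of the reads of Ctdsp2 in the 6 mice. Mir7654, in an exon of the splicing cofactor gene Arglu1 that the annotation marks as coding, had 331, 268 and 396 RPKM in *Hoxa9*/MTV against 205, 207 and 175 RPKM in *Hoxa9*/*IRX3*. These cohorts did not overlap, and the log2 fold change was -0.75 ± 0.18 (SE) with a limma adjusted p of 0.0925.

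**Figure D2:**
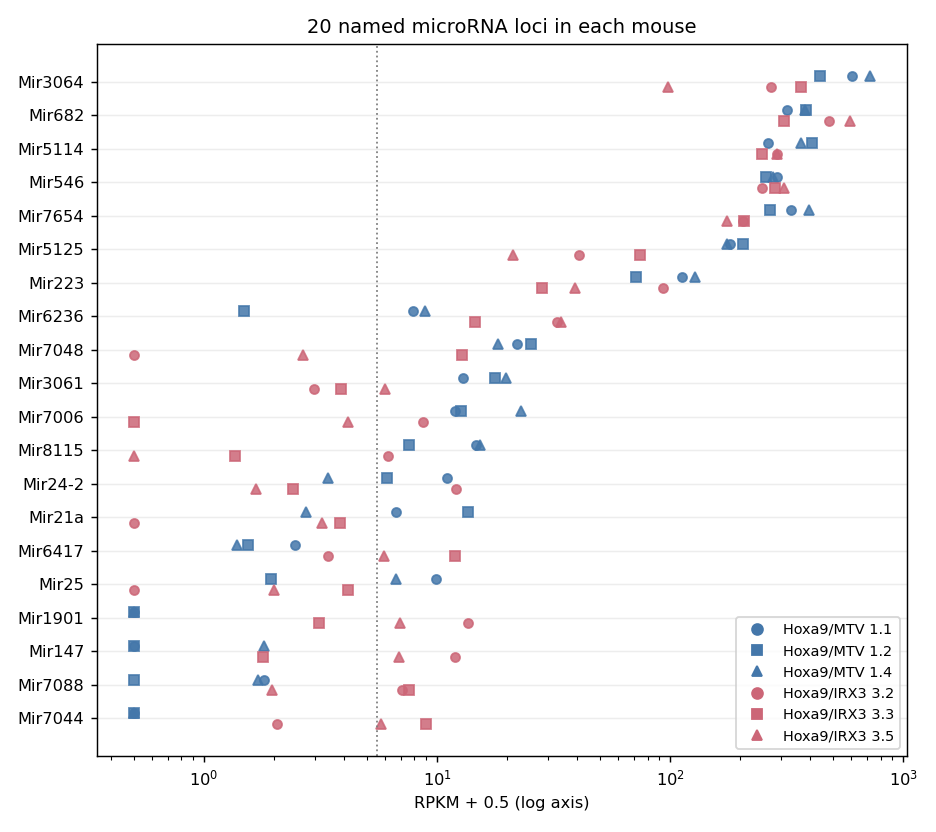
RPKM plus 0.5 on a log axis (x axis) of 20 named microRNA loci (y axis), with 1 point per mouse, blue for *Hoxa9*/MTV and red for *Hoxa9*/*IRX3*, and a dotted line at the limit of 5 RPKM. The red points of Mir5125, Mir7048, Mir3061, Mir7006 and Mir8115 lie left of all blue ones, and those of Mir1901 and Mir7044 lie right of blue points that are all at 0.

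The study asks what *IRX3* does to *Hoxa9* leukemia cells, and the loci were compared between cohorts with limma on log2(RPKM + 0.5), fitted over the 12806 genes that exceeded 0.5 RPKM in any mouse. A call required an adjusted p below 0.05 together with a change of 2-fold or more. Of the 197 loci, 3 were called (1.52%), Mir1901 and Mir7044 higher and Mir3061 lower in *Hoxa9*/*IRX3*, while the share called over all tested genes was 2.01%, 0.765% higher and 1.24% lower. The share of the loci was thus near the background. Mir1901 and Mir7044 passed the limit of 5 RPKM only through *Hoxa9*/*IRX3* mice and had to differ. The share therefore rests in part on how the loci were chosen and is a description. Without mouse 1.1, 1.2 or 1.4 no locus was called, without mouse 3.3 there were 9, and without mouse 3.5 there was 1.

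Mir3061 lies on chromosome 11 at chr11:52126746-52126836, on the plus strand, in the untranslated region of Ppp2ca, the gene of the catalytic subunit of protein phosphatase PP2A. It had 10, 13 and 17 reads in mice 1.1, 1.2 and 1.4, which are 12.4, 17.2 and 19.3 RPKM, and 2, 3 and 4 reads in mice 3.2, 3.3 and 3.5, which are 2.48, 3.36 and 5.51 RPKM. Every *Hoxa9*/*IRX3* mouse was below every *Hoxa9*/MTV mouse. The fitted log2 fold change was -2.01 ± 0.30 (SE) with a limma adjusted p of 0.0335, and over 16 alternatives the adjusted p ran from 0.0279 to 0.150 and the call held in 10. It was lost without mouse 1.1 (limma adjusted p = 0.0967), 1.2 (0.146), 1.4 (0.150) or 3.3 (0.0660). The whole gene Ppp2ca did not pass, with 8.99, 10.2 and 10.3 RPKM against 8.14, 9.52 and 8.70 RPKM and a limma adjusted p of 0.533. The hairpin took 0.433%, 0.525% and 0.585% of the reads of Ppp2ca in *Hoxa9*/MTV and 0.0953%, 0.111% and 0.198% in *Hoxa9*/*IRX3*, without overlap. Gm26551, on the opposite strand, was at 0.223 to 0.313 RPKM in all mice. Another entry on the opposite strand over the hairpin, named mmu-mir-3061, is not described here.

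Both loci called higher passed the limit of 5 RPKM only through *Hoxa9*/*IRX3* mice, so that they had to differ, and both rested on few reads. Mir1901, on chromosome 18, lies in an exon of the noncoding gene Gm6277 and opposite to Cables1, a gene for a CDK-binding protein. It had no read in *Hoxa9*/MTV and 9, 2 and 4 reads in mice 3.2, 3.3 and 3.5, which are 13.0, 2.62 and 6.43 RPKM. Against 3 reads in each *Hoxa9*/MTV library the mean was at least 1.70-fold higher, with a limma adjusted p of 0.0278 (0.0106 to 0.132 over 16 alternatives). The call was lost without mouse 1.1 (limma adjusted p = 0.107), 1.2 (0.117), 1.4 (0.132) or 3.5 (0.0676). Its surroundings differed the same way: Gm6277 was at 0 to 0.0242 RPKM against 0.137 to 0.490, and Cables1 at 0.00874 to 0.0202 RPKM against 0.182 to 0.397. Both stood under the limit of 0.5 RPKM and were not tested.

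Mir7044, chr6:118085192-118085263, spans the 3′ end of an intron of Rasgef1a, a gene for a Ras exchange factor. It had no read in *Hoxa9*/MTV and 1, 6 and 3 reads in mice 3.2, 3.3 and 3.5, which are 1.57, 8.50 and 5.22 RPKM. The mean was at least 1.09-fold higher than 3 reads per library, with a limma adjusted p of 0.0390 (0.00887 to 0.182 over 16 alternatives). Without mouse 1.1 (limma adjusted p = 0.144), 1.2 (0.155), 1.4 (0.162) or 3.5 (0.0887) it was not called. Rasgef1a itself was at 0, 0.0191 and 0.00411 RPKM in *Hoxa9*/MTV against 1.18, 0.827 and 0.314 RPKM in *Hoxa9*/*IRX3*, with a limma adjusted p of 0.0903.

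Short of a call, the cohorts did not overlap in 37 of the 197 loci (18.8%), 12 higher and 25 lower in *Hoxa9*/*IRX3*, against 30.2% of all tested genes, 11.2% higher and 19.0% lower. An unadjusted limma p under 0.05 was met by 37 loci (18.8%) and by 20.6% of all tested genes. The fitted change was below 0 in 128 loci (65.0%) and in 56.3% of all tested genes. The median log2 fold change of the loci was -0.33 and that of all tested genes -0.06, and with median-of-ratios scaling these were -0.25 and 0.00.

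Mir5125 had the most reads among the 5 loci without overlap that had the lowest fitted changes. It lies in an intron of Srrm2, which codes for a large scaffold protein of nuclear speckles and the spliceosome, at chr17:23823291-23823369, away from both exons by 421 bases or more. Its level was 180, 204 and 175 RPKM in *Hoxa9*/MTV against 40.0, 73.6 and 20.6 RPKM in *Hoxa9*/*IRX3*, from 394 and 98 reads. The lowest *Hoxa9*/MTV mouse was above the highest *Hoxa9*/*IRX3* mouse, with a log2 fold change of -2.23 ± 0.44 (SE) and a limma adjusted p of 0.0627. It was called with limma voom on recovered reads (adjusted p = 0.0367), with sample weights (0.0452) and without mouse 3.3 (0.0240), while over all 16 alternatives the adjusted p ran from 0.0240 to 0.215. Srrm2 as a whole was at 30.2 to 34.9 RPKM in *Hoxa9*/MTV against 23.3 to 29.6 RPKM in *Hoxa9*/*IRX3*, with a log2 fold change of -0.26 and a limma adjusted p of 0.378.

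The next 3 loci of this kind had 36 to 46 reads each, and none passed the test. Mir7048, at the 3′ end of an intron of Dedd2, a gene for a death effector domain protein, had 11, 12 and 10 reads in *Hoxa9*/MTV and 0, 7 and 1 in *Hoxa9*/*IRX3*, with a limma adjusted p of 0.196. Mir8115, in the untranslated region of the ATP-gated channel gene P2rx7, had 15, 7 and 17 reads against 6, 1 and 0, with a limma adjusted p of 0.151 (0.0396 to 0.381 over 16 alternatives, called without mouse 3.2). P2rx7 as a whole was also lower in each *Hoxa9*/*IRX3* mouse, at 0.00791 to 0.344 RPKM against 0.433 to 0.720. Mir7006, in an intron of 81 bases of the zinc finger gene Znf512b, had 7, 7 and 15 reads against 5, 0 and 2, with a limma adjusted p of 0.240. Here the host was itself called lower, at 8.37, 8.52 and 8.86 RPKM against 4.49, 2.59 and 3.47 RPKM, with a log2 fold change of -1.20 ± 0.19 (SE) and a limma adjusted p of 0.0392.

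Of the named loci that were higher without overlap, Mir6236 had 104 reads, 8, 1 and 10 in *Hoxa9*/MTV and 35, 17 and 33 in *Hoxa9*/*IRX3*. It lies in no annotated gene on chromosome 9, and its log2 fold change was 2.43 ± 0.76 (SE) with a limma adjusted p of 0.151. Mir6417 and Mir7088 passed the limit of 5 RPKM only through *Hoxa9*/*IRX3* mice, so they had to lean that way. Mir6417, also outside genes, had 2, 1 and 1 reads against 3, 13 and 5, with a limma adjusted p of 0.111. Mir7088 is an intron of Mst1, the gene of macrophage-stimulating protein, from end to end. It had 1, 0 and 1 reads against 5, 6 and 1, a ratio of 6.04 (95% counting interval 1.34 to 55.6) that the choice of loci pushed upward, and a limma adjusted p of 0.191. Mice 1.1, 1.4 and 3.5 each had 1 read of it, and only the smaller library of mouse 3.5 kept the cohorts apart in RPKM. The cohorts of Mst1 overlapped, at 0.540 to 1.48 RPKM and 1.28 to 5.58 RPKM.

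Most of the listed microRNAs known in blood cells were not read, and the same held for microRNA loci of any kind. Of 96 genes on lists of HOX cluster, miR-17-92, myeloid, stem cell, tumor suppressor, lymphoid and erythroid microRNAs, 61 were at 0 in all mice, among them Mir196b, Mir155, Mir125b-1, Mir181a-1 and Mir150, and 5 were among the 197 loci. Of all 1072 microRNA loci, 688 were at 0 in all mice, so the count of zeros does not set these lists apart. A locus at 0 in these libraries says nothing of its mature product. No member of the HOX cluster, stem cell, tumor suppressor, lymphoid or erythroid lists reached the limit.

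Mir223 had 463 reads, the most of the 5. It lies on chromosome X at chrX:96242817-96242926 in an exon of the noncoding primary transcript F630028O10Rik. Its level was 112, 71.1 and 127 RPKM in mice 1.1, 1.2 and 1.4 and 92.3, 27.8 and 38.7 RPKM in mice 3.2, 3.3 and 3.5. The cohorts overlapped through mouse 3.2, and the log2 fold change of -1.11 ± 0.47 (SE) did not pass (limma adjusted p = 0.258). The transcript as a whole was at 46.5, 36.5 and 40.9 RPKM against 32.7, 14.3 and 11.96 RPKM, without overlap, with a log2 fold change of -1.19 ± 0.38 (SE) and a limma adjusted p of 0.159. The hairpin took 5.78% to 9.20% of its reads in *Hoxa9*/MTV and 5.78% to 9.61% in *Hoxa9*/*IRX3*.

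The remaining 4 had 14 to 32 reads each and overlapping cohorts. Mir21a and Mir25 passed the limit of 5 RPKM only through *Hoxa9*/MTV mice and Mir147 only through *Hoxa9*/*IRX3* mice, which fixed the side to which they lean. Mir21a, in the untranslated region of the autophagy gene Vmp1, had 5, 10 and 2 reads against 0, 3 and 2. Mir25, with Mir93 and Mir106b in an intron of the replication helicase gene Mcm7, had 7, 1 and 5 reads against 0, 3 and 1. Mir24-2, of the miR-23a cluster, had 10, 5 and 3 reads against 11, 2 and 1. Their limma adjusted p-values were 0.334, 0.362 and 0.624. Mir147, which macrophages induce, had 0, 0 and 1 reads against 8, 1 and 4, a ratio of 13.1 (95% counting interval 1.97 to 556) that the choice of loci pushed upward, and a limma adjusted p of 0.142. Mir27a, from the same cluster as Mir24-2, and Mir18, from the miR-17-92 cluster, lay under the limit of 5 RPKM but were called lower, with 3, 3 and 1 reads and 1, 2 and 1 reads in *Hoxa9*/MTV and none in *Hoxa9*/*IRX3* (limma adjusted p = 0.0335 and 0.0280). Both entered the test only through the cohort in which they had reads, so they had to differ, and with so few reads no fold change is given.

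As RPM, the reads on a set of loci scaled by library depth alone, the sum over all 197 loci came to 559, 554 and 612 RPM in mice 1.1, 1.2 and 1.4 and 509, 496 and 461 in mice 3.2, 3.3 and 3.5. Every *Hoxa9*/*IRX3* sum was below every *Hoxa9*/MTV sum. Intronic loci gave 303 ± 16.2 against 238 ± 40.4 RPM and loci in exons 265 ± 15.9 against 242 ± 22.1 (SD, n = 3 each). The cohorts did not overlap in the intronic sum and overlapped in the exonic one. Without Mir3064 and Mir5125 the intronic sum was 248 ± 8.81 against 218 ± 29.5, without overlap by a narrow gap, 242.6 in mouse 1.1 against 239.1 in mouse 3.3. With the median-of-ratios factors of these mice, 1.05 and 1.02, their order reverses and the cohorts overlap. Not every place was lower. Introns filled by the hairpin gave 58.2 ± 2.91 against 65.5 ± 9.04 RPM and noncoding exons 48.1 ± 3.74 against 51.9 ± 16.4, both with overlapping cohorts. The 6 loci in no gene gave 4.98, 3.73 and 5.27 RPM against 7.79, 6.22 and 6.64 RPM, higher without overlap. Among these 6 are Mir6236 and Mir6417, themselves named for rises without overlap. The rise can therefore not be read as a trait of loci in no gene. The loci were chosen by level in these libraries, so the sums are a description.

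**Figure D3:**
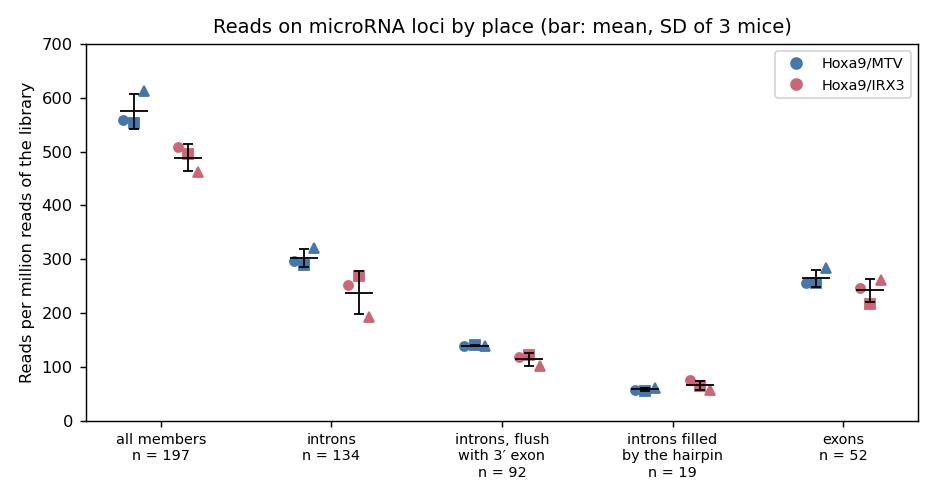
RPM (y axis) summed over microRNA loci by place (x axis), with 1 point per mouse and the mean and SD of 3 mice as bars. For all 197 loci and for introns the 3 red points (*Hoxa9*/*IRX3*) lie below the 3 blue ones (*Hoxa9*/MTV), and for exons and for introns filled by the hairpin they overlap.

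Hosts were compared in the same fit. The 187 loci with a host had 182 different hosts, of which 173 were tested. Of these, 2 were called, Znf512b and Arglu1, both lower (1.16%, beside 2.01% of all tested genes), and the cohorts did not overlap in 54 (31.2%, beside 30.2%). Arglu1 was at 18.9, 15.7 and 18.2 RPKM against 8.04, 6.92 and 4.16 RPKM, with a log2 fold change of -1.44 ± 0.25 (SE) and a limma adjusted p of 0.0479. Neither host was called without mouse 1.1, 1.2 or 1.4 (limma adjusted p from 0.148 to 0.185), Arglu1 was lost without mouse 3.3 (0.0693) and Znf512b without mouse 3.5 (0.0794).

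Across loci the fitted change of the locus correlated with that of its host, with a Pearson r of 0.63 over 132 intronic and 0.62 over 46 exonic loci. This is a description across loci, which share libraries and share reads with their hosts. The median of locus minus host was -0.17 on the log2 scale in introns and -0.13 in exons.

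**Figure D4:**
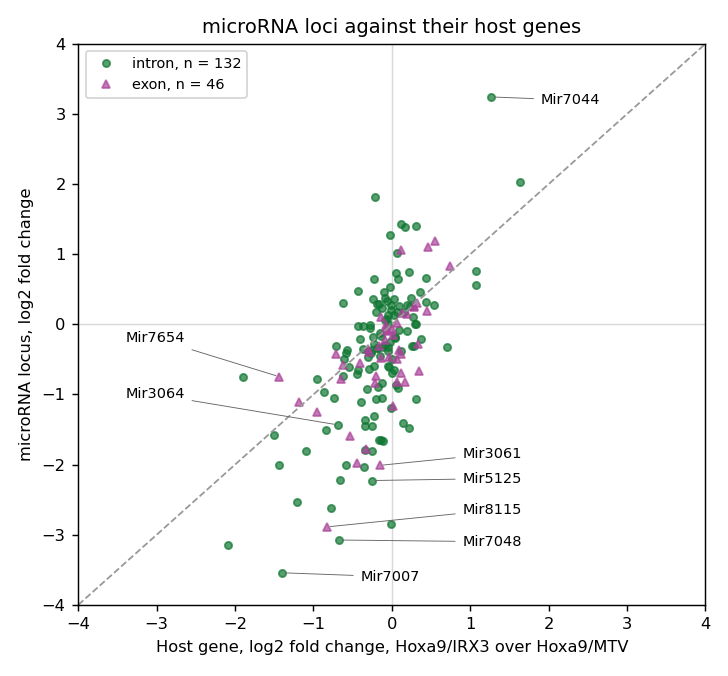
Log2 fold change of the microRNA locus (y axis) against that of its host gene (x axis), both *Hoxa9*/*IRX3* over *Hoxa9*/MTV, with 1 point per locus, circles for 132 intronic and triangles for 46 exonic loci, and a dashed line where both are equal. Mir5125 and Mir3061 lie at about -2 on the y axis beside hosts near 0 on the x axis, and Mir7654 lies above the line.

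A locus and its host can also be compared within a library, as the ratio of their RPKM, in which depth cancels. The length of a host includes its introns, so the size of a ratio does not measure the locus against the mature host RNA. Only the change of a ratio between mice is described. The share of all hosted loci without overlap in this ratio is not given here, so the count that follows is no result about the loci as a set. Of the named loci given below, 5 had a ratio that did not overlap between cohorts. Mir3061, Mir5125 and Mir7048 among them were named for low values without overlap, and a two-sided exact permutation test of 3 mice against 3 cannot go below p = 0.1, so the ratios are a description. Mir5125 stood at 5.16, 6.76 and 5.67 times the RPKM of Srrm2 in *Hoxa9*/MTV and at 1.45, 2.49 and 0.887 times in *Hoxa9*/*IRX3*. Mir3064 stood at 5.46, 4.50 and 5.49 times that of Ddx5 against 3.81, 4.43 and 1.72 times. Its cohorts were apart by a narrow gap only, 4.50 in mouse 1.2 against 4.43 in mouse 3.3. Mir7048 stood at 3.35, 3.36 and 2.57 times that of Dedd2 against 0, 2.17 and 0.583 times. The fourth was Mir3061 in Ppp2ca, described above, and in these 4 the locus was lower relative to its host in *Hoxa9*/*IRX3*. In Mir7654 it was higher, at 17.6, 17.1 and 21.7 times the RPKM of Arglu1 against 25.5, 29.9 and 42.2 times. Here the host was called lower and the locus was not. For Mir223, Mir546 and Mir682 the ratios overlapped, with means of 2.49 and 2.67, 21.8 and 21.2, and 3.25 and 3.21.

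**Figure D5:**
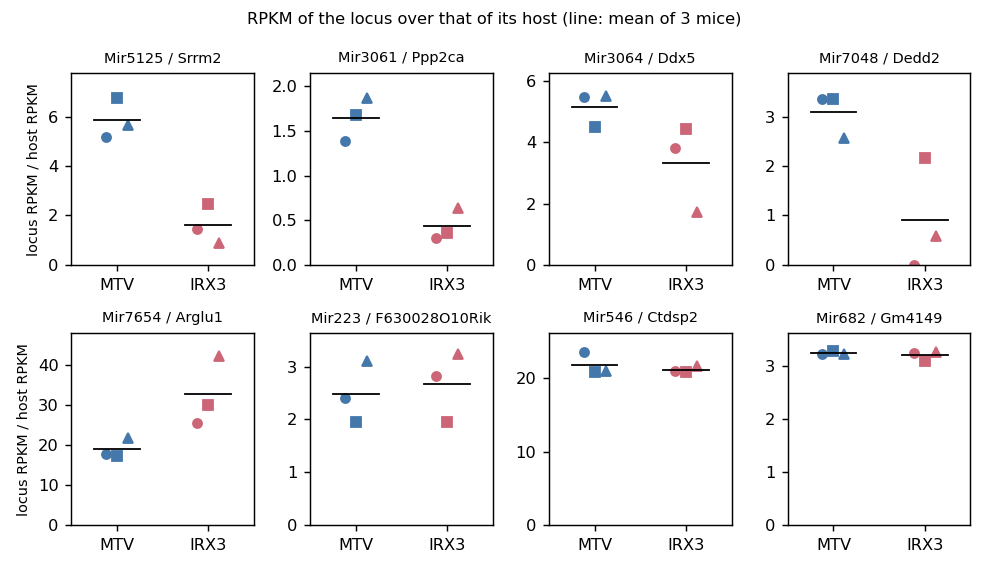
RPKM of 8 microRNA loci divided by that of the host gene in the same mouse (y axis, from 0), for 3 *Hoxa9*/MTV mice (blue) and 3 *Hoxa9*/*IRX3* mice (red), with the mean as a line. In Mir5125, Mir3061, Mir3064 and Mir7048 the red points lie below the blue ones, in Mir3064 by a narrow gap. In Mir7654 they lie above, and in Mir223, Mir546 and Mir682 they overlap.

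The genes of the microRNA pathway gave no call. Of 26 listed genes 23 were tested and 0 passed the limma limits, with 0 also by voom on recovered reads and 3 at an unadjusted p under 0.05, and the cohorts did not overlap in 6. Over all tested genes 2.01% were called, 20.6% had an unadjusted p under 0.05 and 30.2% did not overlap, so these counts do not set the pathway apart. The genes are ranked here by RPKM, which also depends on the annotated span. The highest of the nuclear processing genes was Ddx5, the host of Mir3064. Ddx5 was at 110, 97.3 and 132 RPKM in *Hoxa9*/MTV against 71.2, 82.5 and 56.5 RPKM in *Hoxa9*/*IRX3*. Its log2 fold change was -0.69 ± 0.20 (SE), with a limma adjusted p of 0.128. Drosha itself had 168 to 318 reads per library. Scaled by a span that includes introns, these gave 0.191 to 0.294 RPKM, under the limit of 0.5 RPKM. It was therefore not tested, which does not mean that it was hardly read. The highest of the export and Dicer genes was Ran, the GTPase that drives export, at 12.5 to 16.8 RPKM in *Hoxa9*/MTV against 14.5 to 16.1 in *Hoxa9*/*IRX3*, and the highest of the let-7 control genes was the uridyltransferase gene Zcchc6 at 3.14 to 3.82 and 3.10 to 3.63 RPKM. Of the Argonaute genes, Ago1 had the highest mean RPKM over all mice, though Ago2 was above it in each *Hoxa9*/*IRX3* mouse. In reads Ago2 was above Ago1 in every mouse, at 2160 to 2839 against 894 to 1259. Ago1 was at 4.24, 4.49 and 3.79 RPKM against 3.38, 2.86 and 3.34 RPKM, without overlap (limma adjusted p = 0.197). Ago2, the slicing Argonaute, was at 2.96, 2.92 and 2.66 against 3.60, 3.19 and 3.43 RPKM, also without overlap (limma adjusted p = 0.295). Tnrc6b, a GW182 gene whose protein links Argonaute to the deadenylases, was at 0.813, 0.757 and 0.706 RPKM against 1.26, 1.21 and 1.59 RPKM, with a log2 fold change of 0.56 ± 0.13 (SE) and a limma adjusted p of 0.0857. It hosts Mir5113 in its untranslated region, a locus singled out after its values were seen, which was likewise higher in all *Hoxa9*/*IRX3* mice, with a log2 fold change of 1.19 and a limma adjusted p of 0.0849.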

How the data were processed

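RNA was sequenced from sorted leukemia cells of 6 mice, 3 per cohort, as polyA libraries with paired reads of 75 bases. The authors aligned reads to GRCm38 with Bowtie2 2.2.1, used SAMtools 0.1.19, counted reads per Ensembl gene and deposited RPKM values, 1 column per mouse. The minimum overlap of a read with a gene is not given in the sources used here. Library divisors were recovered from the RPKM values and gene lengths, taken as the annotated span with introns. Whole reads within 0.01 read were then given by 196 of 197 loci and by 70.6% of the tested genes with an annotated position. Cohorts were compared with limma 3.58.1 (R 4.3.3, variance trend) on log2(RPKM + 0.5), so fold changes of low genes are understated, for 12806 genes over 0.5 RPKM in at least 1 mouse, with Benjamini-Hochberg adjustment over all of them. Ratios to hosts were computed in Python 3.11.15. Counting intervals are exact and, like the floor of 3 reads per library, cover counting error only. Named were called loci, loci on the microRNA lists, the 5 highest means, and the 5 largest changes in each direction among loci with at least 10 reads whose cohorts did not overlap. Alternatives were other pseudocounts, filters, scalings, voom and leaving out each mouse. The loci and lists were chosen with earlier results of these data known. The methods were tested on simulated data.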

Additional observations from a re-analysis of the deposited data

How the results depend on the processing

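Among the 197 loci there were 3 calls, 1 with a pseudocount of 5 RPKM, 1 with the limit of 5 RPKM set for every gene, 0 without a filter and 1 with voom, and 0 to 9 when 1 mouse was left out. With voom all 3 were lost (limma adjusted p of 0.0584 for Mir1901, 0.0686 for Mir3061 and 0.0881 for Mir7044) and the call was Mir5125, and of the 9 without mouse 3.3 only Mir1901 and Mir7044 were among the 3. Among hosts there were 2 calls, 1 with a pseudocount of 0.1 or 5 RPKM, 0 with either other filter, 1 with quantile normalization, 5 with voom, and 0 to 5 when 1 mouse was left out. Calls over all genes, 257, were 457 with voom, 158 without a filter, 54 with a pseudocount of 5 RPKM, 49 with the limit of 5 RPKM, and 18, 20 and 12 without mouse 1.1, 1.2 and 1.4. Of 320 values of the 20 named loci, 290 kept their direction and side of the threshold, 23 lost a call, 4 gained one and 3 changed sign, all of Mir546, to -0.00101 with sample weights and, from a range of -0.0484 to 0.106 when 1 mouse was left out, to -0.0151 without mouse 1.2 and -0.0484 without mouse 3.5. A limit of 10 RPKM gave 131 loci. The ratios to hosts, an alternative chosen after seeing the data, kept their direction without any 1 mouse, at 0.200 to 0.300 (Mir3061), 0.200 to 0.336 (Mir5125), 0.537 to 0.799 (Mir3064), 0.0944 to 0.446 (Mir7048) and 1.47 to 1.92 (Mir7654). The intronic sum without Mir3064 and Mir5125 was chosen in the same way. The causes were not tested. No paired analysis was possible because the cohorts share no mouse number.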

Other observations

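Some loci singled out after their values were seen lie in genes of myeloid cells. Mir7007, in the mast cell protease gene Cpa3, had 14, 1 and 21 reads in *Hoxa9*/MTV and 0, 0 and 2 reads in *Hoxa9*/*IRX3*, with overlapping cohorts and a limma adjusted p of 0.198. It passed the limit of 5 RPKM only through *Hoxa9*/MTV mice, so it had to lean that way. Mir6983, in the macrophage receptor gene Csf1r, was at 28.3, 18.8 and 35.5 RPKM against 3.53, 41.4 and 3.92 RPKM, with mouse 3.3 above all *Hoxa9*/MTV mice. The limma adjusted p of Mir6983 was 0.379 and, over 16 alternatives, 0.0232 to 0.619, the lowest without mouse 3.3, when it was called lower. Csf1r itself was at 5.82, 4.77 and 5.94 RPKM against 0.790, 6.43 and 0.552 RPKM. Mir7676-1 and Mir7676-2 have the same mature sequences and lie in the paralogs Csf2rb2 and Csf2rb. Reads that match both may be split between them or removed by the filter on alignments, so their values are uncertain.

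Introns filled by their hairpin went both ways. Mir702, in Plod3, had 85, 99 and 84 reads in *Hoxa9*/MTV and 171, 144 and 113 in *Hoxa9*/*IRX3*, with a limma adjusted p of 0.129. Mir1982, in the ornithine decarboxylase antizyme gene Oaz1, had 27, 21 and 42 reads against 7, 15 and 3, with a limma adjusted p of 0.103 (0.0479 to 0.302 over 16 alternatives, called only without mouse 3.3), and Oaz1 was at 9.74, 9.87 and 10.6 RPKM against 3.85, 5.46 and 1.81 RPKM (limma adjusted p = 0.0963).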
